A study of Mus musculus with 6 samples.

Results

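The receptors through which activin, Nodal and TGF-beta signal were examined in day 2 epiblast-like cells (EpiLCs) with and without functional Smad2 and Smad3. They comprise 8 of the 24288 genes in the expression table and were taken by symbol, with the isoform entry of the highest total where a gene had several. The set holds the type I receptors Tgfbr1, Acvr1b and Acvr1c, the type II receptors Acvr2a, Acvr2b and Tgfbr2, and the co-receptors Tgfbr3 and Eng. EpiLCs model the early post-implantation epiblast and are made from embryonic stem cells. All 6 libraries were from cells first kept in medium with LIF, PD0325091 and CHIR99021, then grown on fibronectin for 2 days with 20 ng/ml activin A, 12 ng/ml Fgf2 and KSR. Both groups thus received a receptor ligand. The WT libraries (n = 3) came from the CCE line, of strain 129/Sv//Ev. The DKO libraries (n = 3) came from clone KT15.1F6, of the same strain. This clone carries Smad2 tm1Rob alleles on both chromosomes and a CRISPR deletion of the first exon of Smad3. Both lines are XY. The 3 libraries of a genotype were independent differentiations of 1 line or clone, so the knockout and other differences between the lines cannot be told apart. In bulk RNA, fewer cells that express a gene and less of its RNA per cell cannot be told apart either.

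Ligands of this family bring type I and type II receptor kinases into 1 complex on the cell surface. The type II kinase phosphorylates a short stretch rich in glycine and serine, the GS box, in the type I receptor, which then phosphorylates Smad2 and Smad3. Activin and Nodal use Acvr2a or Acvr2b with Acvr1b or Acvr1c, whereas TGF-beta uses Tgfbr2 with Tgfbr1. Gdf11 and myostatin can use Tgfbr1 with the activin type II receptors. Co-receptors bind ligand without a kinase of their own. In the early mouse embryo these receptors carry the Nodal signal that patterns the epiblast and starts the formation of mesoderm and endoderm.

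The coding bases of the GS box were compared between the type I receptors of the Smad2 and Smad3 branch. The stretches were found by their amino acids (serine or threonine, then GSGSGLP). The base differences among the 3 shown are therefore silent. Each stretch below has 24 bases, is split between coding exons of the GENCODE M21 transcript (GRCm38, the mm10 assembly) and is given 5′ to 3′ on the coding strand. Capitals mark bases that differ from Tgfbr1.
Tgfbr1: tcagggtctggatcaggtttacca
Acvr1b: tcagggtctggCtcaggGttaccC
Acvr1c: tcTggCtcAggCtcTggtCtGccT
The first and last bases lie at chr4:47393474-47396362 (plus strand) for Tgfbr1, chr15:101195042-101198791 (plus strand) for Acvr1b and chr2:58287904-58295941 (minus strand) for Acvr1c, with an intron in between. Acvr1b differed from Tgfbr1 at 3 bases and Acvr1c at 8, and the type I receptors of the Bmp branch differed at 7 to 12. By these bases Acvr1c was no closer to Tgfbr1 than Bmpr1a (7) or Acvr1 (8) of the Bmp branch. Similarity between the receptor transcripts did not extend over long runs. Among the 28 pairs of receptor transcripts, the longest run shared by any pair was 22 bases, between Acvr1b and Tgfbr2 outside the coding sequence. Of the longest runs of each pair, those inside the coding sequence of both genes reached 17 bases. An example is gagtgctggtacgccaa in Acvr1b (chr15:101210767-101210783, plus strand) and Acvr1c (chr2:58274997-58275013, minus strand). Coding sequence was not searched on its own. Reads of 75 cycles are longer than these runs, so a read of full length from spliced RNA cannot match 2 of these transcripts equally. Introns, which counts over gene bodies include, were not compared.

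Of the 8 receptors, 7 passed the filter on low values and were tested, while Acvr1c did not pass. A gene was called changed when its limma p-value, adjusted by the method of Benjamini and Hochberg over the 17038 genes tested, lay under 0.05 and its fold change exceeded 1.5. By this rule 1 receptor, Eng, rose in the DKO EpiLCs and no receptor fell. Among all genes tested, 15.4% were called changed in either direction, and 7.35% were called higher in the DKO. By the adjusted p-value alone, 3 of 7 receptors passed (Eng and Tgfbr1 higher, Acvr2b lower), where 53.4% of all genes did. The same 3 receptors had WT and DKO values that did not overlap, as did 59.0% of all genes. The 1 receptor called of 7 is near the background for either direction, and the 3 of 7 are below their backgrounds. The median log2 fold change of the tested receptors was 0.03, against 0.000122 for all genes tested.

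**Figure D1:**
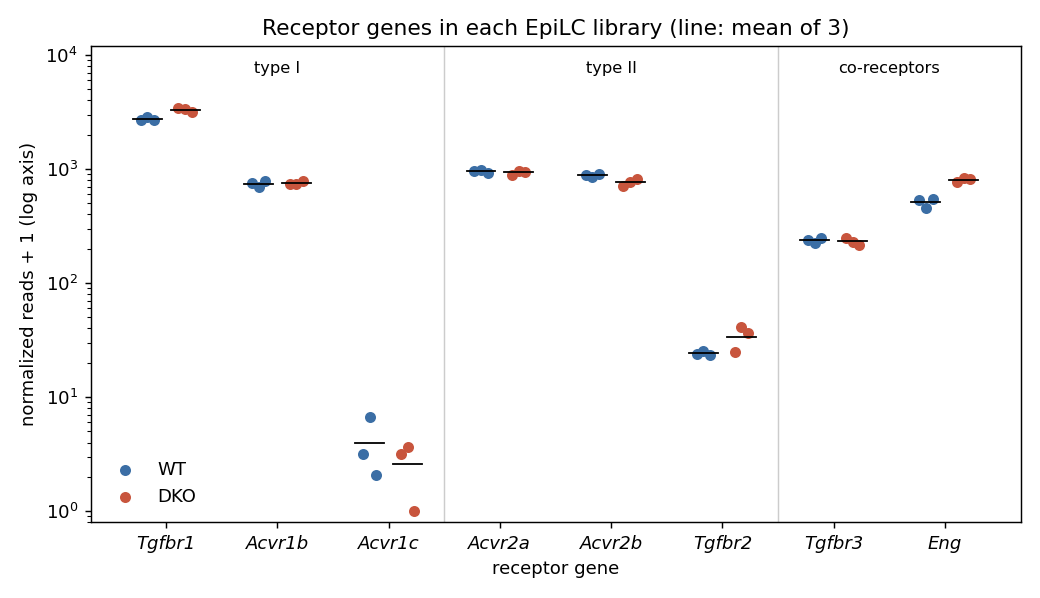
Normalized reads plus 1 (log axis) of the 8 receptor genes in each of 3 WT and 3 DKO EpiLC libraries, with the mean of each group as a line. The DKO points of Eng (771 to 828) and Tgfbr1 (3160 to 3451) lie above all WT points, those of Acvr2b (704 to 817) lie below, and Tgfbr2 and Acvr1c are far lower than the others.

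Among the type I receptors, Tgfbr1 (also named Alk5, NM_009370, chr4:47353222-47414931, plus strand, mm10), the type I receptor of TGF-beta, had the most reads. Its value was 2701, 2874 and 2704 normalized reads in the WT libraries and 3451, 3343 and 3160 in the DKO libraries. All DKO values were above all WT values, and the difference was small beside the threshold. The log2 fold change was 0.27 ± 0.04 (SE, 95% confidence interval 0.19 to 0.34) with a limma adjusted p of 4.29e-07, which is a fold of 1.20 and under the 1.5-fold limit.

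Acvr1b (also named Alk4, NM_007395, chr15:101174067-101213684, plus strand), the main type I receptor of activin and Nodal, was close to equal in the 2 genotypes. It had 753, 694 and 777 normalized reads in WT and 736, 739 and 787 in DKO. The groups overlapped. The DKO minus WT difference was 0.03 ± 0.05 on the log2 scale (limma adjusted p = 0.698), and its 95% confidence interval of -0.08 to 0.13 lay within the 1.5-fold limits on either side.

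Acvr1c (also named Alk7, NM_001111030, chr2:58267453-58357895, minus strand), a further type I receptor for Nodal and related ligands, was near the limit of detection. The reads recovered from the normalized values were 4, 10 and 2 in the WT libraries and 4, 5 and 0 in the DKO libraries. With no filter on low values, the log2 fold change was -0.64 with a 95% confidence interval of -1.76 to 0.47 (limma adjusted p = 0.373). On this scale, which understates changes of genes with few reads, the interval includes a fall of 1.5-fold but not a rise of that size.

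Among the type II receptors, those shared by activin and Nodal had many more reads than that of TGF-beta. Acvr2a (NM_007396, chr2:48814109-48903269, plus strand) had 951, 982 and 918 normalized reads in WT and 893, 969 and 937 in DKO. The groups overlapped, and the difference on the log2 scale was -0.03 ± 0.05 (95% confidence interval -0.12 to 0.07, limma adjusted p = 0.651). The last 446 bases of its gene body overlap Orc4 on the opposite strand. Whether reads were assigned by strand was not given in the sources used here. Orc4 itself, a subunit of the origin recognition complex, had a log2 fold change of 0.04.

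Acvr2b (NM_007397, chr9:119402118-119433515, plus strand), the other activin type II receptor, was the only tested receptor with a lower value that passed on the adjusted p. It had 880, 850 and 900 normalized reads in WT and 704, 763 and 817 in DKO. The groups did not overlap, and the DKO values were spread more widely than the WT values. The log2 fold change was -0.21 ± 0.05 (95% confidence interval -0.31 to -0.10, limma adjusted p = 0.00165), short of the 1.5-fold limit. An antisense gene, Gm47320, covers 3909 bases of its gene body.

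Tgfbr2 (NM_009371, chr9:116084293-116175265, minus strand), without which TGF-beta itself cannot signal through Tgfbr1, had few reads. The recovered reads were 43, 43 and 42 in WT and 44, 76 and 68 in DKO, which are 23.1, 24.5 and 22.4 against 23.7, 39.9 and 35.2 normalized reads. DKO replicate 1 was within the WT range and the other DKO libraries were above it. The log2 fold change of 0.45 ± 0.22 was not called (95% confidence interval -0.01 to 0.91, limma adjusted p = 0.0909). Without DKO replicate 1 it was 0.66 with an adjusted p of 0.0178 and would be called, so the value turns on that library.

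The co-receptors differed from each other. Tgfbr3 (betaglycan, NM_011578, chr5:107106570-107289629, minus strand), which presents TGF-beta and binds inhibin, had 237, 224 and 250 normalized reads in WT and 250, 228 and 216 in DKO. The groups overlapped, and the difference on the log2 scale was -0.04 ± 0.08 (95% confidence interval -0.21 to 0.13, limma adjusted p = 0.720).

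Eng (endoglin, NM_007932, chr2:32646595-32682658, plus strand) is a co-receptor for TGF-beta and Bmp ligands that is best known from endothelial cells. It had 535, 458 and 541 normalized reads in WT and 771, 828 and 822 in DKO. Every DKO library was above every WT library, and the lowest WT library was replicate 2. Eng rose by 0.66 ± 0.06 on the log2 scale (95% confidence interval 0.54 to 0.78, limma adjusted p = 4.87e-10), a fold of 1.58 whose interval of 1.45 to 1.72 includes the 1.5-fold limit. Without WT replicate 2 the log2 fold change was 0.58 (adjusted p = 2.16e-08), just under that limit, and Eng was then not called. Its 3 isoform entries held the same reads, so isoforms cannot be told apart. The gene body overlaps Fpgs on the opposite strand by 50 bases, and Fpgs, an enzyme of folate metabolism, had a log2 fold change of -0.06. On its own strand the gene body also holds the small RNA genes Mir1954 (86 bases), Gm47291 (65 bases) and Gm26236 (137 bases). The size of the Eng difference was at the 85.6th percentile of all genes tested.

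**Figure D2:**
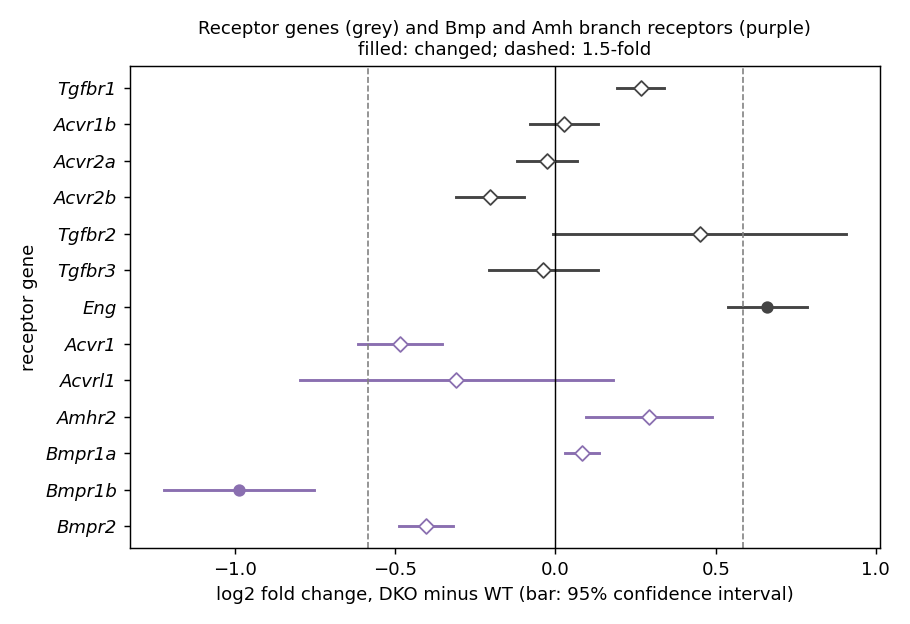
Log2 fold change (DKO minus WT, x axis) with its 95% confidence interval for the 7 tested receptors in grey and the 6 Bmp and Amh branch receptors in purple, with dashed lines at 1.5-fold in either direction and filled points for genes called changed. Eng (0.66) and Bmpr1b (-0.99) are the filled points, and Tgfbr2 has the widest interval of the 7 receptors.

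**Figure D3:**
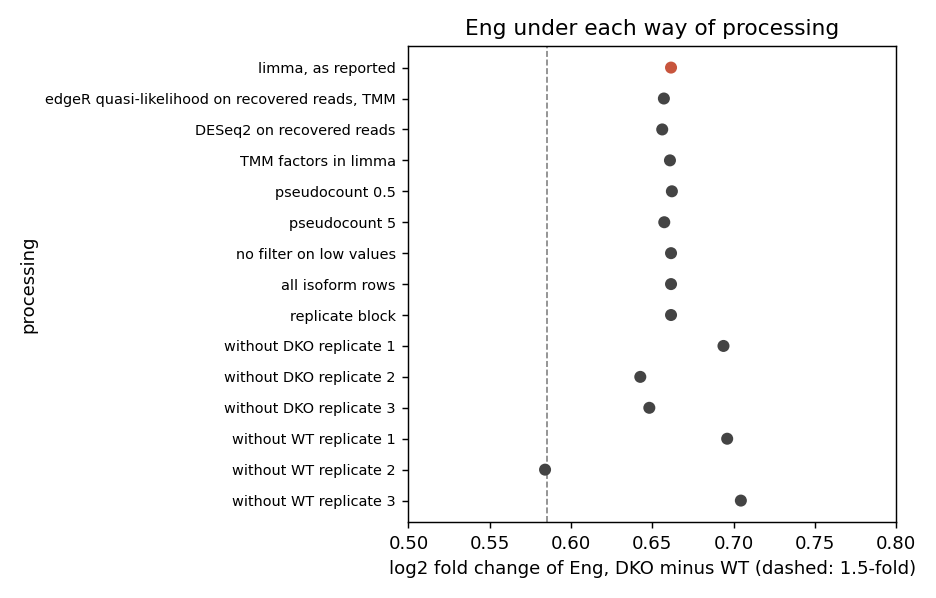
Log2 fold change of Eng (x axis, which starts at 0.5) under each way of processing the data, with a dashed line at 1.5-fold. The values lie between 0.58 and 0.70, and the value without WT replicate 2 is at the line.

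The promoters of the receptors that were higher in the DKO are shown because Smad proteins bind short DNA motifs directly. The windows are the 250 bases before the RefSeq gene start in GRCm38.p6, 5′ to 3′ on the strand of the gene. Capitals mark CAGAC or its reverse complement GTCTG (the Smad box) and GGCGCC (a GC-rich Smad motif, its own reverse complement).
Eng (chr2:32646345-32646594, plus strand): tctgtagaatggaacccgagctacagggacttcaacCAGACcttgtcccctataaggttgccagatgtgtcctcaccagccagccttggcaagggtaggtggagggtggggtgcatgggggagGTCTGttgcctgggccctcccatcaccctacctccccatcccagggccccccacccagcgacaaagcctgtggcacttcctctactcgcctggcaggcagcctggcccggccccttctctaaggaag
Tgfbr1 (chr4:47352972-47353221, plus strand): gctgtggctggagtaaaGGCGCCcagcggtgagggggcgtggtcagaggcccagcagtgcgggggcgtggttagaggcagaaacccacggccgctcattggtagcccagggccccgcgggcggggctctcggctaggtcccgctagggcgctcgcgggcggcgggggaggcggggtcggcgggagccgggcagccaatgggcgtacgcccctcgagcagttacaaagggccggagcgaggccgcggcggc
The Eng window held 2 Smad boxes and the Tgfbr1 window printed here held 1 GC-rich motif and no Smad box. RefSeq gives a second start for Tgfbr1, inside the gene body, whose window (chr4:47385966-47386215, plus strand) held 1 Smad box and no GC-rich motif. Of all 32851 promoter windows of this length, 42.2% held at least 1 Smad box and 11.5% held at least 2, while 9.59% held GGCGCC. Windows of Acvr2a, Acvr2b and Tgfbr2 held 1 Smad box each, and that of Acvr1b and both windows of Acvr1c held none. The motif AATCCACA, bound by the Smad partner Foxh1, was in 0.718% of all windows and in no receptor window read. Such short matches are a description of the sequence and say nothing about binding.

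Levels of different receptors were compared as normalized reads per kb of gene body, since reads were counted over gene bodies. In WT, Tgfbr1 was highest with 44.7 ± 1.61 (SD, n = 3), followed by Acvr2b with 27.9 ± 0.812 and Acvr1b with 18.7 ± 1.08. Eng came next with 14.2 ± 1.29, then Acvr2a with 10.7 ± 0.355. Tgfbr3 at 1.30 ± 0.0694, Tgfbr2 at 0.256 ± 0.0116 and Acvr1c at 0.0328 ± 0.0267 were lower by a wide margin. The Acvr1c value turned on 1 library, and without WT replicate 2 it was 0.0178. No neighbours in this order had overlapping values in WT. Among 16784 tested genes with a position, the WT level of Tgfbr1 was at the 57.9th percentile and that of Tgfbr2 at the 5.08th.

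In DKO, Eng moved from the fourth to the third place with 22.4 ± 0.862 normalized reads per kb, above Acvr1b with 19.0 ± 0.725. Acvr2b, in second place with 24.3 ± 1.79, overlapped with Eng. The order of the other receptors was as in WT. The length used matters for close neighbours. Per kb of exon, the WT value of Acvr2a (167) was above that of Eng (149). With the longer RefSeq span of Acvr2b, its level was 21.6 in WT and 18.8 in DKO, which in DKO is below Eng and Acvr1b.

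**Figure D4:**
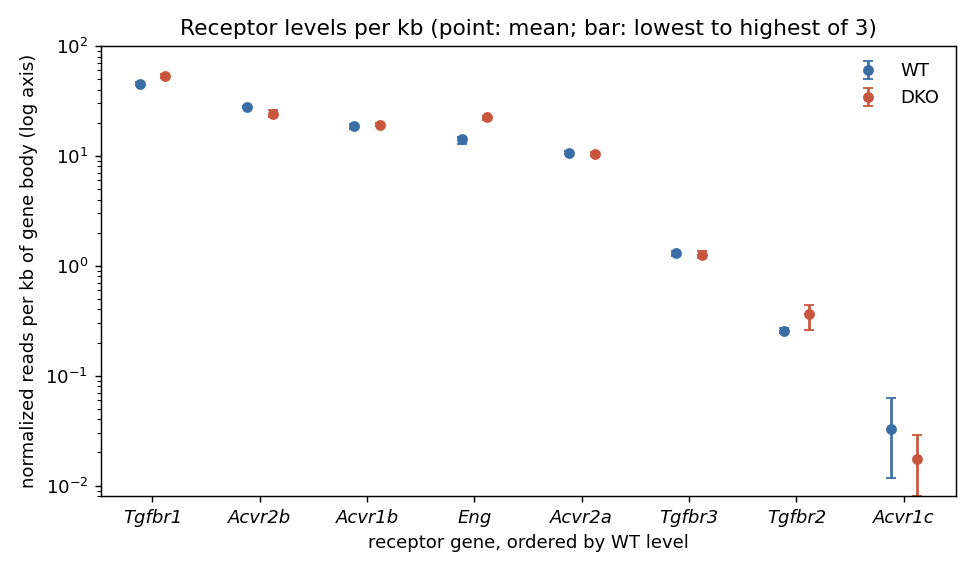
Normalized reads per kb of gene body (log axis) of the 8 receptor genes in WT and DKO EpiLCs, ordered by WT level, with the mean as a point and a bar from the lowest to the highest of 3 libraries. Levels run from 44.7 for Tgfbr1 to 0.0328 for Acvr1c in WT, and the DKO bar of Acvr1c is cut off at the axis because 1 library is at 0.

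The balance between receptors of a type was taken within each library, on the per kb scale. Tgfbr1 made up 70.5% ± 1.89 of the type I sum in WT and 73.8% ± 1.57 in DKO, and Acvr1b made up 29.5% ± 1.93 and 26.2% ± 1.59. Acvr2b made up 71.9% ± 1.27 of the type II sum in WT and 69.1% ± 1.20 in DKO, Acvr2a 27.5% ± 1.23 and 29.9% ± 1.21, and Tgfbr2 0.660% ± 0.0376 and 1.03% ± 0.219. These shares depend on the length used. With the longer RefSeq span the WT level of Acvr2b is 21.6, which lowers its share and the type II sum. The type I sum was 63.5 ± 0.677 normalized reads per kb in WT and 72.8 ± 1.72 in DKO, and the type II sum was 38.8 ± 0.451 and 35.1 ± 2.15. The WT ratio of Tgfbr1 to Tgfbr2, the pair that TGF-beta uses, was 174 ± 3.01 per kb, and in DKO it was 157 ± 50.4.

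Of 4 ratios chosen for a test, 3 could be tested. The ratio of Acvr2a to Acvr2b was 0.382 ± 0.0239 in WT and 0.433 ± 0.0248 in DKO (exact two-sided permutation p = 0.2, adjusted p = 0.2), with overlap between the groups. With the RefSeq span of Acvr2b this ratio is higher in both genotypes alike. The ratio of Acvr1b to Tgfbr1 was 0.419 ± 0.0382 and 0.355 ± 0.0293 (exact permutation p = 0.2, adjusted p = 0.2), again with overlap. The ratio of Tgfbr2 to Acvr2a was 0.0240 ± 0.000335 and 0.0344 ± 0.00751 without overlap (exact permutation p = 0.1, adjusted p = 0.2). With 3 libraries against 3, an exact p cannot go below 0.1, so none of these ratios could be called. The ratio of Acvr1b to Acvr1c was not tested, because Acvr1c had 0 reads in 1 DKO library.

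The genes most like Eng over the 6 libraries, by the root mean square difference of centred log2 values, were Smox (0.0439), Zmym3 (0.0488) and Nectin1 (0.0489). Smox encodes spermine oxidase and Nectin1 a cell adhesion protein. In all, 175 genes lay within 0.1 of it.

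The labels were checked on the targeted genes. Smad3 fell from 839 ± 37.0 to 23.6 ± 6.16 normalized reads (-5.12 on the log2 scale, limma adjusted p = 7.91e-22). Smad2 had 4520 ± 86.3 in WT and 5062 ± 109 in DKO, so the gene-body reads do not show the loss of its function. Recovered depth was 57644143 to 63046034 reads per library.

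Markers of other cell types were read beside Eng, because Eng is known from endothelial cells. The summed level of 8 endothelial markers was 1358 to 1436 normalized reads in WT and 2903 to 3147 in DKO. Pecam1 alone had 963 ± 31.3 in WT and 2301 ± 165 in DKO, so the sum mainly follows that gene. Of the 6 that were tested, Pecam1 (log2 fold change 1.25), Tek (0.96) and Kdr (2.01) rose, Tie1 (-0.90) fell, and Erg (0.04) and Esam (0.13) were not called. The other two, Cdh5 and Emcn, had at most 1.26 normalized reads on average in either genotype and were not tested. Of 7 trophoblast markers, 6 were tested and all of them rose. Gata2, Gata3, Plac1 and Hand1 had WT means of only 5.09, 3.25, 4.93 and 4.32 normalized reads. These genes passed the filter on low values only through the DKO libraries, so their part of this count was favoured by the filter. The summed level of the 7 was 94.5 to 106 in WT and 558 to 672 in DKO. Tfap2c alone had 67.5 ± 1.14 and 390 ± 51.3. Of 6 blood markers none was called changed, and 1 passed on the adjusted p alone. Among 8 fibroblast and mesenchyme markers, Dcn (-2.14) and Col1a2 (-1.07) fell. The summed level of the 8 was 1624 to 1689 in WT and 521 to 571 in DKO. Dcn alone had 1330 ± 51.3 and 300 ± 16.9, so this sum mainly follows that gene. The part of these markers in the result for Eng was not tested. Of 7 markers of extra-embryonic endoderm, 1 of the 5 tested rose. Beside each of these marker counts stands the share of all genes tested, 15.4% called changed and 7.35% called higher. For the adjusted p alone the share is 53.4%.

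The epiblast markers Pou5f1 and Dnmt3b were high in both genotypes, at 21846 ± 496 and 70390 ± 1336 normalized reads in WT and 20761 ± 344 and 65421 ± 388 in DKO. Of the 6 epiblast markers, Sox2 (log2 fold change 1.47) rose and Fgf5 (-2.02) and Pou3f1 (-0.62) fell. Of the 5 markers of naive embryonic stem cells, 4 rose, among them Klf2 (1.11) and Zfp42 (0.62). Of all genes tested, 7.35% were called higher.

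The receptors of the Bmp and Amh branch, which signal mainly to other Smads, partly use the same type II receptors and are the set closest in kind. All 6 were tested, 1 was called changed and 5 passed on the adjusted p alone. Among all genes tested, 15.4% were called changed and 53.4% passed on the adjusted p alone. These shares stand beside the counts of this list and of the lists below, and 1 called of 6 is near its share. Bmpr1b, a type I receptor of Bmps, fell from 198 ± 25.0 to 99.3 ± 12.0 normalized reads (-0.99 on the log2 scale). Acvr1 (-0.49) and Bmpr2 (-0.40) were lower without reaching 1.5-fold, Bmpr1a (0.08) and Amhr2 (0.29) were higher without reaching it, and Acvrl1 (-0.31) did not pass. The median log2 fold change of this list was -0.36. It was not tested whether the 2 sets of receptors differ.

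A mixed list of 7 genes held the Nodal co-receptors Tdgf1 and Cfc1, the decoy Bambi, and Cd109, Tgfbr3l, Nrros and Lrrc32. Of the 7, 6 were tested, 1 rose and 1 fell. Tdgf1 (Cripto), the co-receptor that Nodal needs to bind its receptors, fell from 13892 ± 236 to 7299 ± 84.7 normalized reads (-0.93 on the log2 scale). Cfc1 (Cryptic), of the same family, rose from 6.64 ± 3.63 to 20.5 ± 3.61, at few reads in both genotypes (1.58). Its recovered reads were 9, 19 and 8 in WT and 31, 40 and 46 in DKO. It thus passed the filter on low values only through the DKO libraries, which favours a rise. Bambi, a decoy without a kinase, had a log2 fold change of -0.20. The median of the list was -0.11.

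Of 11 ligands, 7 were tested, 1 rose and 2 fell, and the median log2 fold change was 0.29. Tgfb2 rose (0.71) and Tgfb1 fell (-0.69), at means of at most 46.9 normalized reads. Gdf1, a partner of Nodal, fell (-0.64), though its gene body is known to be shared with Cers1. Nodal itself had 3053 ± 76.6 normalized reads in WT and 3726 ± 220 in DKO (0.29), under the 1.5-fold limit. The transcripts for the activin subunits Inhba and Inhbb had means of at most 3.07 and 10.6 normalized reads. Mstn had 0 reads in all 6 libraries.

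The antagonists included the largest differences of the pathway. Of 5, 4 were tested and 2 fell. Lefty1 fell from 14273 ± 252 to 94.9 ± 9.84 normalized reads (-7.22 on the log2 scale) and Lefty2 from 4852 ± 64.8 to 32.1 ± 6.03 (-7.21), both inhibitors that block Nodal at its receptors and co-receptor. Fst, which traps activin, had a log2 fold change of -0.28 and was not called. The median of the 4 was -3.75.

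Of 16 adaptors and regulators of the receptors, all were tested, none rose and 2 fell, while 14 passed on the adjusted p alone. The shares of all genes tested were 15.4% called changed and 53.4% passing on the adjusted p alone. Smad7, which directs the ubiquitin ligases Smurf1 and Smurf2 to type I receptors, fell from 1946 ± 83.0 to 456 ± 20.3 normalized reads (-2.09 on the log2 scale). Pmepa1, which holds Smad2 and Smad3 away from the receptor, fell from 642 ± 32.6 to 35.5 ± 4.54 (-4.15). Both are well known targets of the pathway. Zfyve9 (Sara), which brings Smads to the receptor, had a log2 fold change of -0.20, Smurf1 of 0.24, Smurf2 of 0.09 and Fkbp1a, which binds the GS box, of -0.16. The median of the list was -0.11. Of the 3 Smads of this branch, Smad3 fell and Smad4 had a log2 fold change of 0.14, and the median of the list was 0.14.

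**Figure D5:**
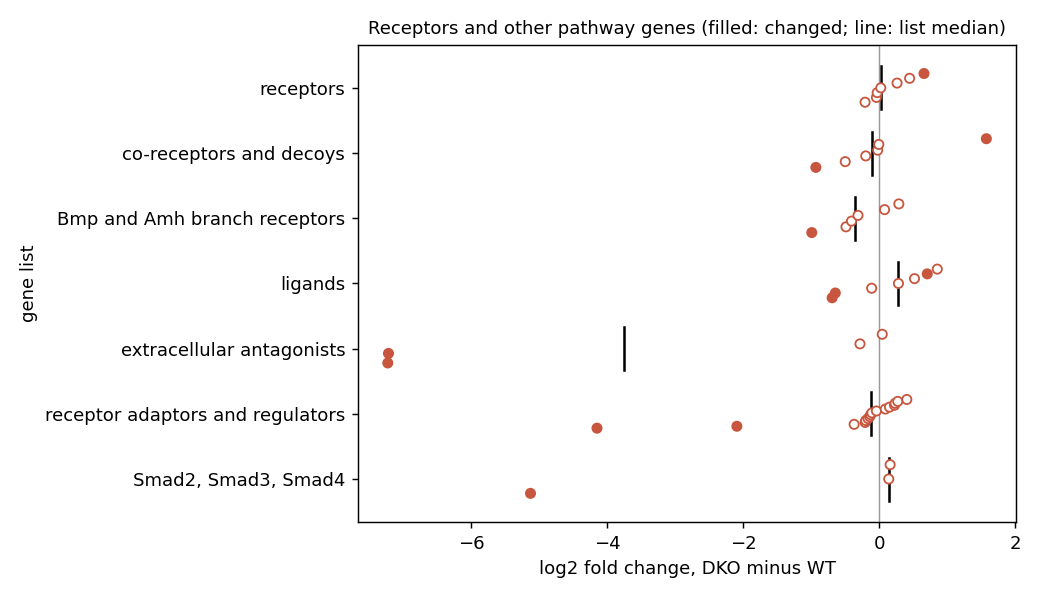
Log2 fold change (DKO minus WT, x axis) of the tested receptors and of the other pathway genes by list, with filled points for genes called changed and a line at the median of each list. The receptors lie between -0.21 and 0.66, whereas Lefty1 (-7.22), Lefty2 (-7.21), Smad3 (-5.12) and Pmepa1 (-4.15) lie far to the left.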

How the data were processed

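RNA was measured in 3 WT and 3 DKO EpiLC libraries, of ribosome-depleted, stranded, paired-end RNA-seq. As the study describes it, rRNA reads were filtered out by bowtie2, the remainder was mapped by STAR to mm10, PCR duplicates were dropped by Samtools, and refGene gene bodies served as the counting units. Versions and the use of strand are not given in the sources used here. The deposited values are a signal, normalized reads with no length scaling. In each library they were whole multiples of 1 unit, and the inverse of that unit was 1.76 to 1.93. Whether the unit is a read pair or 1 mate of a pair is not given in the sources used here. Low multiples were often even, for example 8, 6, 10, 6, 6 and 0 for Tgfb3, though not for all genes. Isoform entries with the same ends and exon lengths over 100 bases apart held identical reads in 305 of 315 pairs, as whole gene bodies give. The authors' comparison table holds their fold changes and p-values and was not used.

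Whole reads, counted in the unit above, were recovered for 100% of values (tolerance 0.01 reads), 57644143 to 63046034 per library. Rows without a symbol (138, 0.517% of reads) were left out. limma (version 3.58.1, R 4.3.3; lmFit, eBayes with trend) was fitted to log2(value + 1), which understates changes of genes with few reads, over 17038 genes that passed filterByExpr of edgeR. Changed genes had an adjusted p under 0.05 and over 1.5-fold (2623, of which 1253 were higher and 1370 lower). On the recovered reads, the edgeR (version 4.0.16) quasi-likelihood test called 2638 and DESeq2 (version 1.42.0) called 2475. Errors are those between replicates, as the reads carried no molecular identifiers. The fits were tested on simulated data. Other alternatives were TMM factors, pseudocounts, no filter, all isoform entries, a replicate block, each library left out and the adjusted p alone.

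Genes named are the receptors, members of the pathway and marker lists, Smad2 and Smad3, genes that overlap a receptor, and the 3 genes most like each changed receptor. The members and lists were chosen with earlier results of these data known. Positions and lengths came from GENCODE M21 (GRCm38), promoters from RefSeq GRCm38.p6, in which no window for Tgfbr3 was listed.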

Additional observations from a re-analysis of the deposited data

How the results depend on the processing

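The number of changed receptors was 1 under all alternatives other than those named here. Leaving out 1 library at a time gave 0 to 2, namely 0 without WT replicate 2 (Eng under 1.5-fold) and 2 without DKO replicate 1 (Tgfbr2 added). By the adjusted p alone 3 of 7 receptors tested passed, as did 9098 (53.4%) of all 17038 genes tested. So did 5 of 6 Bmp and Amh branch receptors tested, 6 of 7 ligands, 14 of 16 adaptors and regulators and 3 of 3 Smads. Over 14 alternatives the log2 fold change of Eng was 0.58 to 0.70, of Tgfbr1 0.24 to 0.30 and of Acvr2b -0.26 to -0.15, and all of these passed on the adjusted p. Tgfbr2 was 0.30 to 0.66, with adjusted p from 0.0178 to 0.345. The sign of values near 0 turned when single libraries were left out, for Acvr1b (-0.021 to 0.061, below 0 without DKO replicate 3, at -0.0055, and without WT replicate 2), Acvr2a (-0.054 to 0.0047, above 0 without DKO replicate 1) and Tgfbr3 (-0.095 to 0.010, above 0 without DKO replicate 3). Per kb of exon, WT levels were 479 for Tgfbr1, 419 for Acvr2b, 168 for Acvr1b, 167 for Acvr2a, 149 for Eng, 39.0 for Tgfbr3, 2.88 for Tgfbr2 and 0.324 for Acvr1c, which are larger because exons are shorter than gene bodies. The RefSeq span, an alternative added after the data were seen, gave 21.6 for Acvr2b. No shared signal of same-numbered libraries was seen, since their deviations correlated at -0.0252 to 0.00475 and 0 of 3 matched best. This cannot settle whether same-numbered differentiations were run together, which the labels do not give. With the replicate block, 2602 genes and 1 receptor were called, and no receptor call changed. Depth limits Acvr1c and Tgfbr2, with at most 10 and 76 reads in a library. If these reads are single mates of pairs, independent fragments are fewer. The filter, edgeR and DESeq2 used the recovered reads as they are.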
